A study of Mus musculus with 10 samples.

Results

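The proteasome is the barrel-shaped protease that degrades ubiquitin-tagged proteins, and the genes described here are the 48 rows of the deposited count table, of 25178 in all, whose symbol is Psm followed by one letter from a to g and a number. Other rows that begin with Psm, among them pseudogenes and interacting proteins, were left out. The study compared hematopoietic stem and progenitor cell preparations of 5 female and 5 male mice of the inbred strain C57/BL6 at steady state. Both groups were untreated, and the labels give neither an age nor any genetic change. Marrow was flushed from 1 hindlimb of each mouse, cells bearing mature lineage markers were depleted on magnetic beads, and bulk RNA of every mouse gave its own library, so n = 5 per sex counts separate animals. The preparation is a mixture of progenitors: Kit, a receptor of stem and progenitor cells, lay between 234 and 341 CPM in females and between 151 and 301 CPM in males, where CPM is the count per 1000000 counts after scaling between libraries. Transcripts of mature cells remained in it. The 6 erythroid markers checked summed to between 3624 and 7758 CPM in females and between 9524 and 46177 CPM in males, and the 8 mature neutrophil markers to between 244 and 901 CPM in females and between 189 and 8421 CPM in males, with none of these genes at 0 over all libraries. In bulk RNA, fewer cells of a type and less RNA per cell cannot be told apart.

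The proteasome consists of a core particle and caps. The core is built of stacked rings: outer rings of alpha subunits (Psma genes), which form the gate, and inner rings of beta subunits (Psmb genes), of which Psmb5, Psmb6 and Psmb7 carry the chymotrypsin-like, caspase-like and trypsin-like active sites. Lymphoid cells and cells under interferon, among others, build in Psmb8, Psmb9 and Psmb10 instead and so form the immunoproteasome. It shapes the peptides shown on MHC class I. The regulatory particle caps the core. Its ATPases (Psmc genes) unfold the substrate, and its non-ATPase subunits (Psmd genes) bind and remove ubiquitin. Blood-forming stem and progenitor cells depend on controlled protein breakdown, and proteasome inhibitors are used against blood cancers.

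Promoter sequence from RefSeq (GRCm38.p6), reaching from 250 bases before to 50 bases after each start site, was found by symbol for 40 of the 48 genes (43 start sites). Psma8, Psmb1, Psmb2, Psmb7, Psmc3, Psmd3, Psmd7 and Psmg2 had no entry. The 100 bases before the start site are printed here, 5′ to 3′, for the constitutive catalytic subunits Psmb5 and Psmb6 and their immunoproteasome counterparts Psmb8 and Psmb9, because the ratios between them are compared further on. Capitals mark TGACNNNGC, the core letters of the element that NFE2L1 and NFE2L2 bind (in Psmb5 and Psmb6), and TTCNNNGAA, the letters of a STAT site (in Psmb8). Neither motif was found in this window of Psmb9.
Psmb5 (chr14:54617996-54618095, minus strand): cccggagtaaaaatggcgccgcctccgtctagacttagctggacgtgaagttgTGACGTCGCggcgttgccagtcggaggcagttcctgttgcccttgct
Psmb8 (chr17:34198095-34198194, plus strand): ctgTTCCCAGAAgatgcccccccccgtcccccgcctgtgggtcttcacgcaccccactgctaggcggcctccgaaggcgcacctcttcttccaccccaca
Psmb6 (chr11:70525257-70525356, plus strand): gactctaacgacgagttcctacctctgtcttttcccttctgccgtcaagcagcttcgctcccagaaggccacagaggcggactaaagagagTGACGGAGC
Psmb9 (chr17:34187331-34187430, minus strand): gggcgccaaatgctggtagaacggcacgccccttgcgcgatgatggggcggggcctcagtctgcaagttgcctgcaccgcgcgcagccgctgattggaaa
Another set is shown whose members share a motif. They were picked by their values in the library that stood apart, male replicate 2, and do not show how genes with the motif divided there. Psmc1 and Psmd12 were higher there than in every other library, and Psmd2 and Psme4 were lower than in every other. Capitals mark CCGGAAG on either strand, the letters of an ETS site.
Psmc1 (chr12:100110102-100110201, plus strand): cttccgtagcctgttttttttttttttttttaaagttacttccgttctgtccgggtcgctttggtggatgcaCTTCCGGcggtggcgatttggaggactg
Psmd12 (chr11:107479428-107479527, plus strand): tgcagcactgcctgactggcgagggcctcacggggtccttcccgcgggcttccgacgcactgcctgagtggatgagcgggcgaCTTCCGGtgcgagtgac
Psmd2 (chr16:20651552-20651651, plus strand): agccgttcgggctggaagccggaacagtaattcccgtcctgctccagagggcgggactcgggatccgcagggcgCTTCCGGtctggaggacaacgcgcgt
Psme4 (chr11:30771675-30771774, plus strand): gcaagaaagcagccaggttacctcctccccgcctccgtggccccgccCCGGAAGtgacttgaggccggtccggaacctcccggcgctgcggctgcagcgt
Over the full 300 bases and both strands, CCGGAAG was present in 15 of the 43 proteasome promoters (34.9%), against 8.86% of all 32851 promoters. These promoters belong to 14 genes. Of the 14, Psmd2, Psme3 and Psme4 had their lowest value in male replicate 2. The others had their highest value there, as did 39 (83.0%) of all 47 tested proteasome genes. The other motifs searched were GGGCGG, a GC box, in 24 (55.8%, against 35.7% of all promoters), TGACNNNGC in 6 (14%, against 12.4%), CCAAT in 14 (32.6%, against 37.4%), GAAANN followed by GAAA, an interferon-stimulated element, in 5 (11.6%, against 3.44%), TTCNNNGAA in 3 (6.98%, against 8.3%), CACGTG in 4 (9.3%, against 7.15%) and TATAAA in 4 (9.3%, against 13.6%). The median GC content was 57.3% in the proteasome promoters and 52.7% in all promoters. The 5 genes with the interferon-stimulated element were Psmb3, Psmd4, Psmd9, Psme1 and Psmg4, and not Psmb8, Psmb9 or Psmb10. A match describes letters and not a bound site.

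Total counts ran from 20754101 to 24366241 in female libraries and from 21136932 to 24759687 in male libraries. Female-specific Xist and male-specific Ddx3y separated the mice as labelled. Male replicate 2 stood apart from the rest. It had the lowest scaling factor (0.886, against 0.964 to 1.05 in the other 9). Its log2 CPM, relative to each gene's mean over the 10 libraries, fell with exon length by 0.21 per doubling. The slopes of the other 9 lay between -0.0391 and 0.0634. The leading principal component set it apart together with male replicate 1 (36.7 and 35.3, with no other library over 6.04). Its marker sums differed too. The stem and progenitor sum was the lowest, 310 CPM against 398 to 527 CPM in the other 9. Its erythroid (26494 CPM) and mature neutrophil (2641 CPM) sums were exceeded only by male replicate 1 (46177 and 8421 CPM). Whether cell content or library quality set male replicate 2 apart was not tested. Fold changes that move by more than 1.5 times without male replicate 2 are given with and without it.

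Proteasome genes were well expressed, and none passed the test between the sexes. Their median level was 51.7 CPM per kilobase of exon, against 4.93 over all genes tested. All but Psmb11 passed the filter on low counts, and the 47 tested genes together took 0.720, 0.735, 0.742, 0.773 and 0.734% of all counts in female replicates 1 to 5 and 0.766, 0.902, 0.791, 0.718 and 0.732% in male replicates 1 to 5. In the edgeR quasi-likelihood fit of female over male, adjusted over all 14674 genes tested, 0 of the 47 were called at an adjusted p under 0.05 (adjusted p between 0.506 and 0.964), where 0.0545% of all genes tested were called. Their log2 fold changes had a median of -0.19 (-0.014 over all genes tested), and 41 of the 47 were below 0 (87.2%, against 52.0% of all genes tested). At an unadjusted p under 0.05, 3 were lower in females (5.41% of all genes tested were) and 0 were higher (3.76% of all genes tested were), and DESeq2 found 0 members at an adjusted and 3, all lower, at an unadjusted p under 0.05 (4.4% of all genes it tested were lower at that p). By role, the fold change was below 0 for 7 of 8 alpha ring genes (median -0.27), 7 of 7 constitutive beta ring genes (-0.25), 3 of 3 immunoproteasome subunits (-0.17), 6 of 6 ATPases (-0.19), 9 of 11 non-ATPases (-0.14), 2 of 3 base chaperones (-0.11), 3 of 5 activators and inhibitor (-0.11) and 4 of 4 core chaperones (-0.19). Without male replicate 2 these medians were, in the same order, -0.089, -0.10, -0.038, -0.084, -0.037, -0.0018, -0.063 and -0.0021. In 0 of the 47 did the 5 females lie wholly below or wholly above the 5 males (0.865% and 1.06% of all genes tested did). For 5 of the 6 erythroid markers every female lay below every male, and the part of erythroid cells in the proteasome values was not tested.

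**Figure D1:**
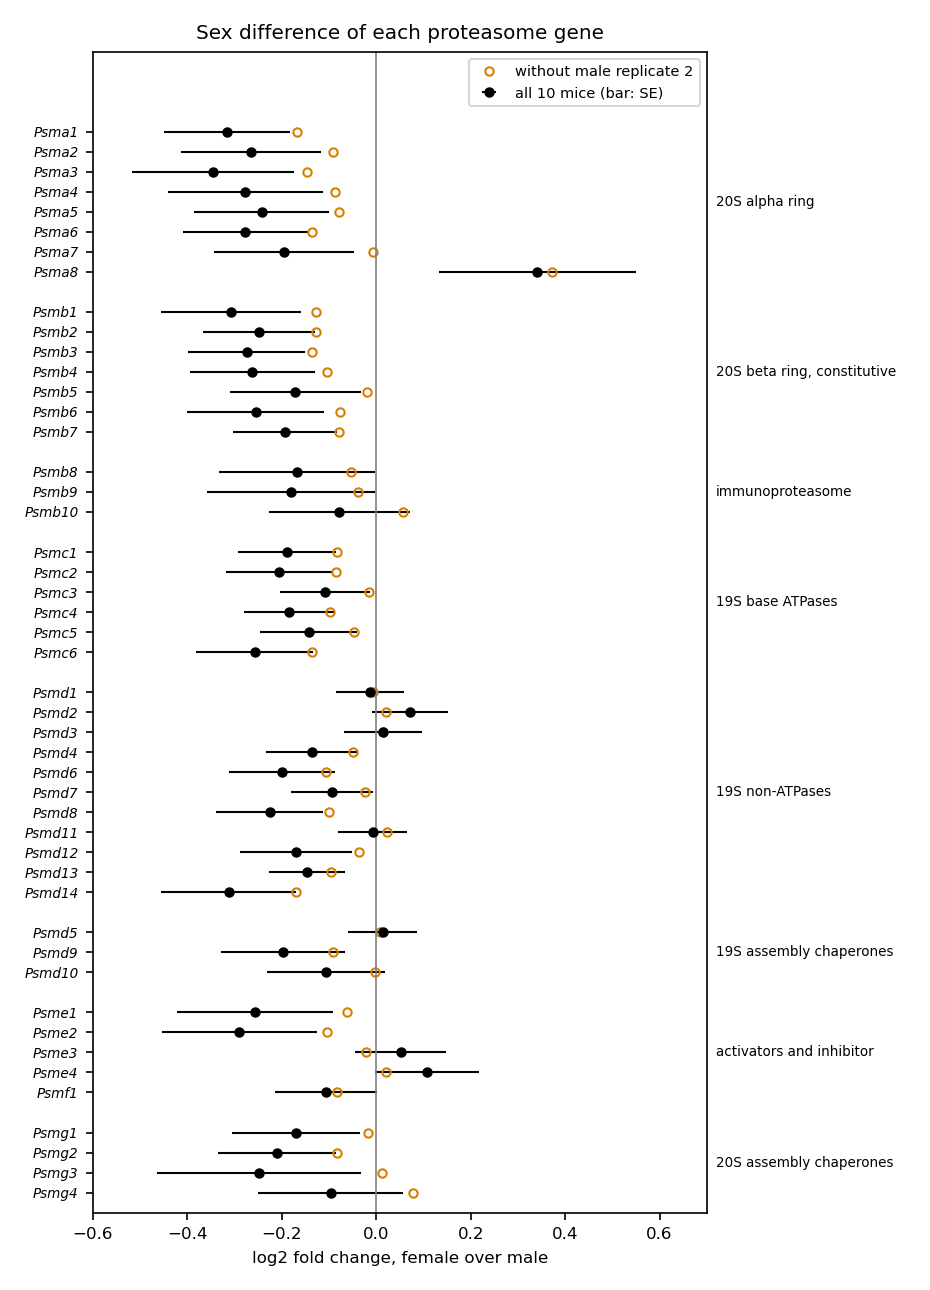
Log2 fold change of female over male for each of the 47 tested proteasome genes (x axis), grouped by role down the page. Filled points with bars are the edgeR estimate and an SE derived from its F statistic, from all 10 mice. Open points are the estimate without male replicate 2. Most filled points lie left of 0 (median -0.19) and the open points lie closer to 0 (median -0.076).

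The negative median moved towards 0 without 1 library. Male replicate 2 was the highest of the 10 libraries for 39 of the 47 genes (83.0%, against 29.8% of all genes tested) and the lowest for 3. The median of the members' log2 CPM around their own means was -0.081, -0.096, -0.081, -0.015 and -0.13 in female replicates 1 to 5, against 0.065, 0.53, 0.061, -0.11 and -0.083 in male replicates 1 to 5. Male replicate 2 stood far above the other mice, male replicates 1 and 3 slightly above every female, and male replicates 4 and 5 among the females. Without male replicate 2 the median log2 fold change was -0.076, with 38 of 47 below 0. Over all genes in that run the median was -0.0023, with 50.6% below 0. With each library's length slope as a covariate the members' median was -0.022, with 31 of 47 below 0. Over all genes it was then 0.0020, with 49.4% below 0. Ribosomal protein genes, which are short, were also highest in that library, and the cause was not tested. The median of 82 of them lay 0.055, -0.15, -0.17, -0.095 and -0.19 around the mean in female replicates 1 to 5 and -0.0059, 0.75, 0.087, -0.15 and -0.13 in male replicates 1 to 5.

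**Figure D2:**
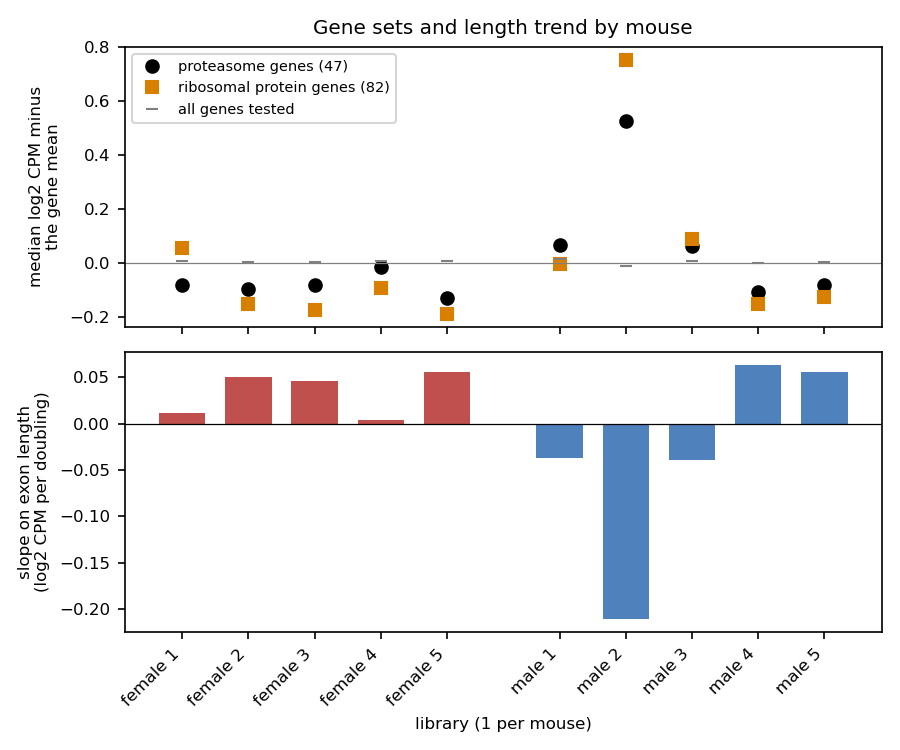
The upper panel gives, for each mouse, the median log2 CPM relative to the gene's mean over 10 mice for proteasome genes, ribosomal protein genes and all genes tested, and the lower panel the slope of log2 CPM deviations on exon length. Male replicate 2 has the highest proteasome and ribosomal medians (0.53 and 0.75) and the steepest slope (-0.21).

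How far fold changes differed with length in the family depended on the length used. The 23 members whose longest coding transcript is at most 1440 bases had a median log2 fold change of -0.21, all 23 below 0, and the 24 longer ones (1541 bases or more) a median of -0.14, 18 of them below 0. Across the 47 genes the rank correlation of fold change with that length was 0.43, and across 12035 genes tested that have a coding transcript it was 0.50. With the union of exons as length, the 23 shorter members (at most 2800 bases) and the 24 longer ones (2808 bases or more) had a median of -0.19 each, with 22 and 19 below 0, and the correlation was 0.19 across the 47 and 0.40 across 14663 genes tested. These are correlations across genes, which share libraries and are not replicates. In male replicate 2 the alpha ring genes had a median of 0.74 above the mean of the other 9 libraries on the log2 scale, the constitutive beta ring 0.66, the core assembly chaperones 0.66, the immunoproteasome subunits 0.54, the regulatory ATPases 0.48, the regulatory assembly chaperones 0.46, the regulatory non-ATPases 0.32 and the activators with the inhibitor 0.16. The part of RNA or library quality, or of cell content, in these values was not tested. The length slopes used as a covariate were estimated from the same expression values, so that fit cannot separate these.

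**Figure D3:**
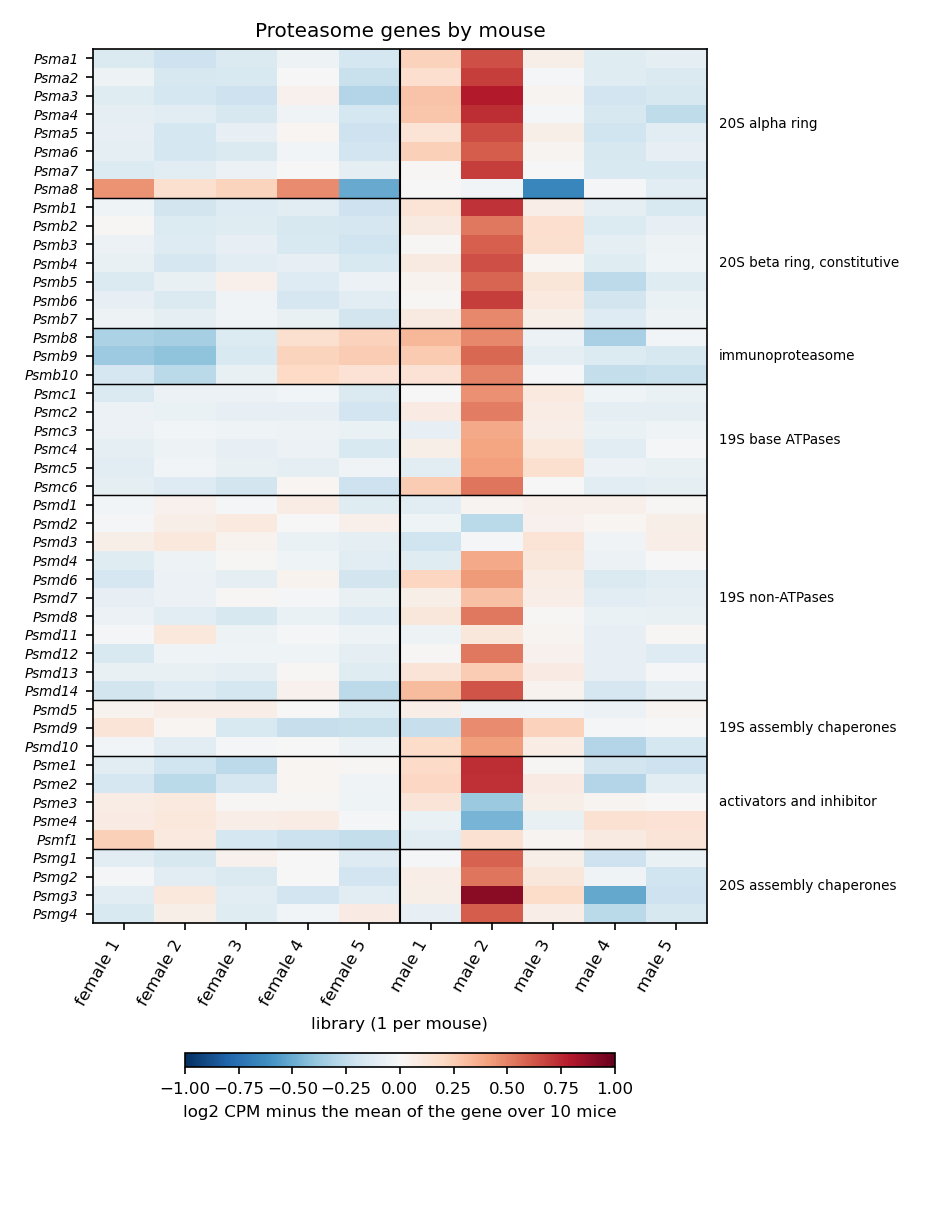
Log2 CPM of each tested proteasome gene relative to its mean over the 10 mice, with genes in rows by role and mice in columns, females at the left. The column of male replicate 2 is raised for 39 genes above every other library and is lowest for Psmd2, Psme3 and Psme4, while Psmb8, Psmb9 and Psmb10 are raised in female replicates 4 and 5 relative to female replicates 1 to 3.

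The alpha ring genes Psma1 to Psma7 lay between 47.7 and 167 CPM per kilobase of exon, the scale on which genes are compared with each other, with lengths taken as the union of annotated exons. By the longest coding transcript the highest members would be Psma7 in the alpha ring, Psmb3 in the constitutive beta ring, Psmc3 among the ATPases, Psmd9 among the base chaperones and Psme1 among the activators, and the lowest would be Psmb1 in the constitutive beta ring and Psmd5 among the base chaperones. Psma6 was the highest by the union of exons at 167 ± 32.9 CPM per kilobase (SD over 10 mice). It had 191, 180.4, 185, 199 and 178 CPM in female replicates 1 to 5 and 240.3, 309, 208, 182 and 192 CPM in male replicates 1 to 5. Its values in male replicates 4 and 5 lay among those of the females, and the log2 fold change was -0.28 (SE 0.13, edgeR adjusted p = 0.506) and -0.14 without male replicate 2. Psma1 (chromosome 7: 114264606 to 114276118, GRCm38 as for all gene positions here), another subunit of the gate ring, had the smallest p of the family. It had 203, 194, 203, 216 and 198 CPM in female replicates 1 to 5, against 262, 349.8, 234, 206 and 211 CPM in male replicates 1 to 5. The groups overlapped, with male replicates 4 and 5 inside the female range, and the log2 fold change of -0.32 (SE 0.13, edgeR adjusted p = 0.506) was -0.17 without male replicate 2. Psma3, with the most negative fold change of the family (-0.34, SE 0.17, and -0.15 without male replicate 2), averaged 164 ± 14.6 CPM in the females and 208 ± 64.2 CPM in the males (SD over 5 mice).

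Psma8 (chromosome 18: 14706151 to 14762301), which takes the place of Psma7 in the proteasome of male germ cells, was expressed at a trace and was the member with the most positive fold change. It had 5.14, 4.21, 4.40, 5.22 and 2.66 CPM in female replicates 1 to 5 and 3.78, 3.69, 2.39, 3.73 and 3.47 CPM in male replicates 1 to 5, from 880 counts over the 10 libraries. Female replicate 5 lay below every male except replicate 3, so the groups overlapped (log2 fold change 0.34, SE 0.21, edgeR adjusted p = 0.509). Psma7 averaged 237 ± 9.09 CPM in the females and 272 ± 74.9 CPM in the males (SD over 5 mice). As Psma7 and Psma8 are close paralogs, reads of the abundant one could be counted as the other, and the level of Psma8 is uncertain to that extent.

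Among the constitutive beta ring genes, all 7 had a log2 fold change below 0, between -0.31 and -0.17 (between -0.14 and -0.021 without male replicate 2), and 0 were called. Psmb4, a structural subunit without an active site, was the highest of them per kilobase at 161 ± 31.6 CPM per kilobase. It had 295, 276, 287, 292 and 279 CPM in female replicates 1 to 5, against 329.6, 484, 314, 285 and 301 CPM in male replicates 1 to 5. Male replicate 2 was far above the rest, and male replicate 4 lay inside the female range (log2 fold change -0.26, SE 0.13, edgeR adjusted p = 0.506, and -0.10 without male replicate 2). Psmb3, Psmb2 and Psmb1, likewise structural, were the beta subunits with the smallest p. Psmb3 (chromosome 11: 97703399 to 97713500) had 203, 194, 199.9, 191 and 185 CPM in female replicates 1 to 5 and 214, 321, 237, 199 and 205 CPM in male replicates 1 to 5. Females reached 203 CPM and 4 of 5 males lay above 203, with male replicate 4 below (log2 fold change -0.27, SE 0.12, edgeR adjusted p = 0.506). Psmb2 had 139.7, 126, 127, 124 and 123 CPM in female replicates 1 to 5, against 148, 200.03, 156, 126 and 131 CPM in male replicates 1 to 5, with male replicates 4 and 5 among the females (-0.25, SE 0.12, edgeR adjusted p = 0.506). Psmb1 had 227, 205, 213, 215 and 202 CPM in female replicates 1 to 5 and 256, 385, 244, 219 and 209.7 CPM in male replicates 1 to 5, with the same males overlapping the females (-0.31, SE 0.15, edgeR adjusted p = 0.506). Without male replicate 2 the log2 fold changes of Psmb3, Psmb2 and Psmb1 were -0.14, -0.13 and -0.13.

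**Figure D4:**
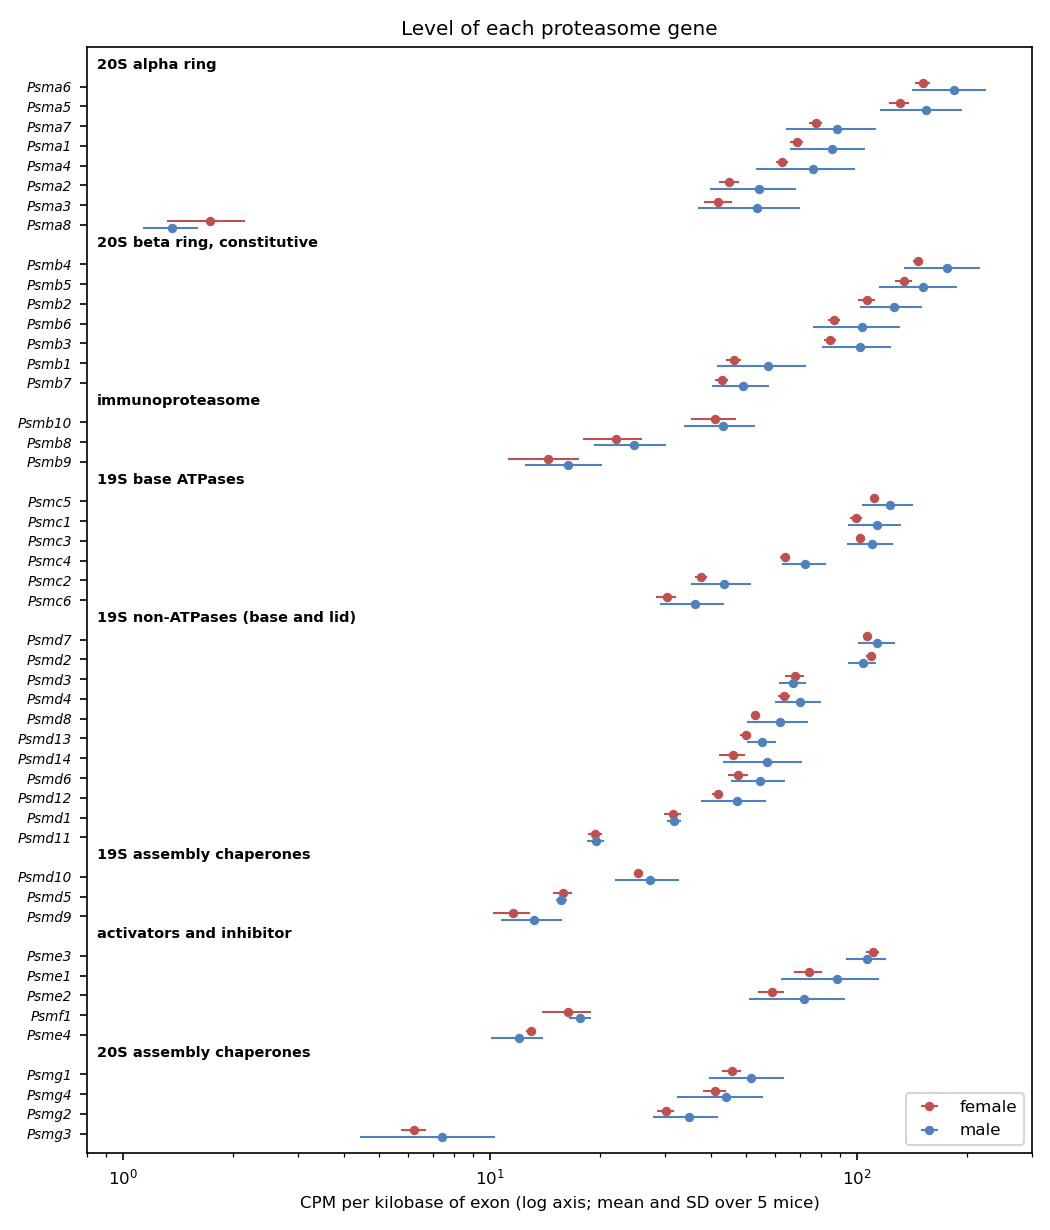
Level of each tested proteasome gene in CPM per kilobase of exon (log x axis), grouped by role and ordered by level within a group, as mean and SD over 5 females and over 5 males. The constitutive beta genes lie between 45.9 and 161, the ATPases between 33.3 and 117, the immunoproteasome genes between 15.4 and 42.2, and Psma8 at 1.55, and most bars of the males are wider.

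The catalytic subunits were present in both forms, with the constitutive form the more abundant in counts. Psmb5, the chymotrypsin-like subunit (chromosome 14: 54614119 to 54618022), had 114, 120.3, 131, 116 and 121 CPM in female replicates 1 to 5, against 129.9, 189, 138, 105 and 117 CPM in male replicates 1 to 5. Its immunoproteasome counterpart Psmb8 (chromosome 17: 34197721 to 34201454) had 62.4, 61.7, 70.5, 86.6 and 91.1 CPM in female replicates 1 to 5 and 97.6, 108, 74.5, 62.02 and 76.1 CPM in male replicates 1 to 5. In Psmb5 male replicate 2 was alone above the rest, while in Psmb8 female replicates 4 and 5 and male replicates 1 and 2 were the 4 highest. The log2 fold change was -0.17 (SE 0.14) for Psmb5 and -0.17 (SE 0.17) for Psmb8 (edgeR adjusted p = 0.561 and 0.616), and without male replicate 2 these were -0.021 and -0.055.

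Psmb6, the caspase-like subunit, had 165, 158, 170.4, 156 and 162 CPM in female replicates 1 to 5, against 176, 283, 187, 154 and 167 CPM in male replicates 1 to 5. Its counterpart Psmb9 (chromosome 17: 34181987 to 34187764) had 42.7, 41.6, 49.4, 64.2 and 65.7 CPM in female replicates 1 to 5 and 66.04, 81.7, 51.8, 50.1 and 49.2 CPM in male replicates 1 to 5. The pattern repeated, with male replicate 2 highest in both and female replicates 4 and 5 well above female replicates 1 to 3 in Psmb9 alone. Log2 fold changes were -0.25 (SE 0.15) and -0.18 (SE 0.18), with edgeR adjusted p = 0.506 and 0.616, and without male replicate 2 they were -0.076 and -0.038. Psmb7, the trypsin-like subunit and the lowest of its ring per kilobase by the union of exons (45.9 ± 6.67 CPM per kilobase), had 149.95, 146, 152, 148 and 137 CPM in female replicates 1 to 5, against 166, 217, 162, 142 and 150.02 CPM in male replicates 1 to 5, and its counterpart Psmb10 (chromosome 8: 105935735 to 105938444) had 63.3, 58.9, 67.4, 81.6 and 78.5 CPM in female replicates 1 to 5 and 78.3, 99.9, 69.8, 60.3 and 60.96 CPM in male replicates 1 to 5. The log2 fold change of Psmb10 was -0.078 (SE 0.15, edgeR adjusted p = 0.793) and was 0.057 without male replicate 2. That of Psmb7 was -0.19 (SE 0.11, edgeR adjusted p = 0.506) and -0.080 without it. Psmb11, the subunit of thymic epithelium, had 4 counts in all 10 libraries, 1 over the 5 females and 3 over the 5 males, and was not tested.

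A ratio of the 2 forms within a library needs no scaling between libraries. Psmb8 had 54.6, 51.3, 53.8, 74.7 and 74.98% of the counts of Psmb5 in female replicates 1 to 5 and 75.1, 57.1, 54.02, 58.8 and 65.2% in male replicates 1 to 5. Psmb9 had 25.9, 26.3, 29.00, 41.3 and 40.6% of the counts of Psmb6 in female replicates 1 to 5, against 37.5, 28.9, 27.7, 32.6 and 29.4% in male replicates 1 to 5. For Psmb10 relative to Psmb7 the values were 42.2, 40.4, 44.3, 55.2 and 57.3% in female replicates 1 to 5 and 47.3, 45.98, 43.04, 42.4 and 40.6% in male replicates 1 to 5. In all 3 pairs female replicates 4 and 5 had higher ratios than the other 3 females, and male replicate 1 had the highest ratio among the males. The sexes overlapped. The log2 ratio differed, female minus male, by -0.015 for Psmb8 to Psmb5, 0.041 for Psmb9 to Psmb6 and 0.11 for Psmb10 to Psmb7 (exact two-sided permutation p = 0.921, 0.825 and 0.357, adjusted p = 0.921 over the 3 for each). The SDs of the log2 ratio were 0.27, 0.33 and 0.23 in females and 0.19, 0.18 and 0.089 in males for the pairs in that order (n = 5 each), so the difference for Psmb10 to Psmb7 was larger than the SD of the males and smaller than that of the females. The smallest p this test allows is 0.00794.

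**Figure D5:**
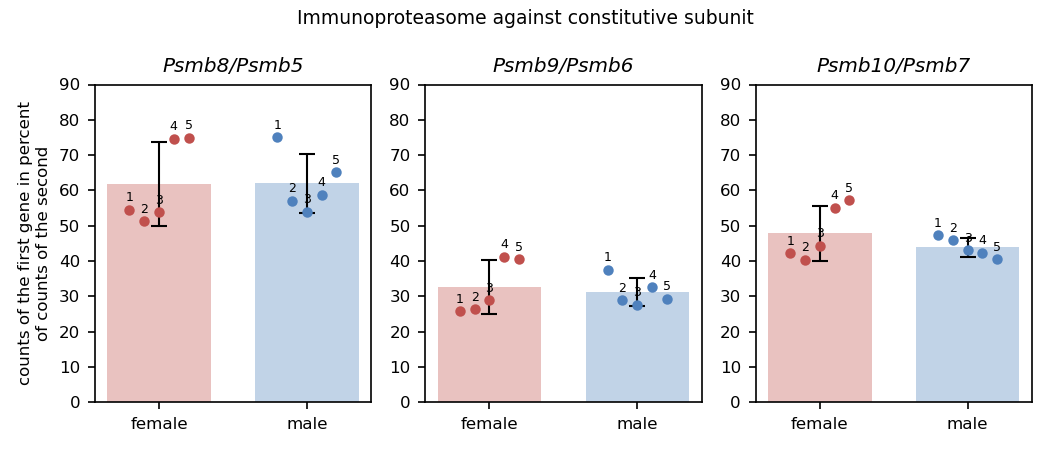
Counts of each immunoproteasome subunit in percent of those of the constitutive subunit it replaces, by sex. Points are mice with their replicate number, bars the mean and error bars the SD over 5 mice. Female replicates 4 and 5 and male replicate 1 are the highest points of their group in every panel, and the points of the sexes overlap.

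Per kilobase the ratio depends on the length used. With the union of exons Psmb8 stood at 16.5% ± 3.16 of Psmb5 in females and 16.5% ± 2.22 in males, Psmb9 at 16.7% ± 3.94 and 16.0% ± 2.03 of Psmb6 in females and males, and Psmb10 at 96.1% ± 15.6 and 88.0% ± 5.43 of Psmb7 in females and males (SD, n = 5 each). With the longest coding transcript they were 34.2% and 34.3%, 19.3% and 18.4%, and 42.4% and 38.8% in females and males.

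The mice with high immunoproteasome ratios also had more of some, but not all, of the interferon-related and mature cell transcripts examined. The following genes were chosen after their values were seen. Irf1, a transcription factor that induces immunoproteasome genes, had 8.005, 8.67, 8.37, 16.97 and 14.3 CPM in female replicates 1 to 5, against 17.8, 14.1, 10.3, 10.7 and 12.2 CPM in male replicates 1 to 5. Tap1, the peptide transporter gene that lies next to Psmb9 (chromosome 17: 34187553 to 34197225, on the opposite strand), had 114, 111, 131, 151 and 154 CPM in female replicates 1 to 5 and 148, 117, 115, 144 and 148 CPM in male replicates 1 to 5. Female replicates 4 and 5 were the highest females for both genes. The 7 macrophage and dendritic cell markers, all with counts and all tested, summed to 19.6, 20.4, 24.6, 50.8 and 42.8 CPM in female replicates 1 to 5, against 91.2, 31.1, 27.2, 24.9 and 14.5 CPM in male replicates 1 to 5. In that sum too, female replicates 4 and 5 and male replicate 1 were the highest of their sex. Other values did not follow the ratios. The erythroid sum was 4627 and 3624 CPM in female replicates 4 and 5, and between 5664 and 7758 CPM in female replicates 1 to 3. The neutrophil sum of female replicate 4 lay below those of female replicates 2 and 3. Male replicate 1 had the highest value of both sums. Nlrc5, which drives MHC class I genes, was highest among females in replicates 4 and 5. In male replicate 1 it had 10.4 CPM, against 15.4 and 15.3 CPM in male replicates 4 and 5. The part of any of these cells in the ratios was not tested. Exons of Psmb9 and Tap1 overlap over 212 bases (5.79% of the Psmb9 exons), those of Psmb8 overlap an antisense transcript over 498 bases (14.7%), those of Psmb7 overlap Nek6 on the opposite strand over 405 bases (11.8%), and those of Psmb5 a microRNA gene on the same strand over 109 bases (12.1%). Whether counting used strand is not stated in the labels, so reads in these stretches cannot be assigned with certainty.

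Psme1 and Psme2, the interferon-inducible activator cap that opens the core gate, lie near each other on chromosome 14 (55578123 to 55581529 and 55587441 to 55591113). Psme1 had 162, 153, 147, 178 and 177 CPM in female replicates 1 to 5 and 200.2, 293, 177, 154 and 152 CPM in male replicates 1 to 5. Psme2 had 100.2, 93.3, 99.9, 114 and 109.7 CPM in female replicates 1 to 5, against 130.1, 187, 119, 92.04 and 104 CPM in male replicates 1 to 5. In both, male replicate 2 was the highest and male replicate 1 the second, and male replicates 4 and 5 lay among or below the females. Their log2 fold changes, -0.26 (SE 0.16) and -0.29 (SE 0.16), with edgeR adjusted p = 0.514 and 0.506, were -0.063 and -0.10 without male replicate 2. The row Psme2b, a copy of Psme2 outside the symbol rule, held 2998 counts against 26036 in Psme2, so reads could be split between them.

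Psme3 and Psme4, the other activators, were low in male replicate 2. Psme3, the nuclear activator, had the highest level per kilobase of its group, 109 ± 9.65 CPM per kilobase. It had 337, 341, 322, 321 and 309 CPM in female replicates 1 to 5 and 349, 246, 333, 325 and 319 CPM in male replicates 1 to 5. Psme4, the large activator known from histone breakdown during spermatogenesis and DNA repair, had the lowest, 12.5 ± 1.42 CPM per kilobase. It had 109.8, 112, 109, 109 and 103 CPM in female replicates 1 to 5, against 99.4, 75.3, 98.9, 116 and 115 CPM in male replicates 1 to 5. Male replicate 2 was the lowest of the 10 libraries in both. The log2 fold changes were 0.052 (SE 0.096, edgeR adjusted p = 0.787) and 0.11 (SE 0.11, edgeR adjusted p = 0.630), and without male replicate 2 they were -0.023 and 0.020. Psmf1, described as a proteasome inhibitor and binding partner of the core, averaged 106 ± 16.2 CPM in the females and 114 ± 7.81 CPM in the males (SD over 5 mice) (log2 fold change -0.11).

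The 6 regulatory ATPases, which form the unfolding ring, all had fold changes below 0 and were uncalled. Psmc5 was the highest per kilobase at 117 ± 14.6 CPM per kilobase. It had 151, 159, 154, 152 and 158 CPM in female replicates 1 to 5 and 151, 215, 181, 155 and 154 CPM in male replicates 1 to 5. The lowest, Psmc6 at 33.3 ± 5.91 CPM per kilobase, had 108, 106, 101, 117 and 99.7 CPM in female replicates 1 to 5, against 137, 167, 116, 107 and 108 CPM in male replicates 1 to 5. Male replicate 2 was highest for both, and the groups overlapped. Log2 fold changes were -0.14 (SE 0.10, edgeR adjusted p = 0.531) and -0.26 (SE 0.12, edgeR adjusted p = 0.506), and -0.047 and -0.14 without male replicate 2. The order of Psmc1 and Psmc3, at 106 CPM per kilobase each, was not fixed, with Psmc1 above Psmc3 in 5 of 10 mice.

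The 11 non-ATPase subunits had the smallest median coefficient of variation of CPM of the role groups over the 10 mice. It was 8.81%, against 21.5% in the alpha ring and 19.3% over all genes tested, with single members between 4.55% and 21.6%. These values include male replicate 2, which stood 0.32 above the other 9 on the log2 scale here and 0.74 in the alpha ring (medians). The spread without that library was not compared between groups. Psmd7, a lid scaffold subunit, was the highest per kilobase at 110.2 ± 9.71 CPM per kilobase, with 235, 239, 250.4, 246 and 236 CPM in female replicates 1 to 5 and 259, 304, 260.04, 231 and 232 CPM in male replicates 1 to 5. Psmd2, the scaffold that binds ubiquitin shuttles, followed at 106 ± 7.06 CPM per kilobase, with 425, 446, 459, 429 and 443 CPM in female replicates 1 to 5, against 417, 356, 442, 434 and 445 CPM in male replicates 1 to 5. The order of these neighbours was not fixed, since Psmd7 lay above Psmd2 in 4 of 10 mice. Psmd2 was the member with the most counts (98710), and its male replicate 2 was the lowest library. Its log2 fold change was 0.072 (SE 0.081, edgeR adjusted p = 0.659), and that of Psmd7 was -0.093 (SE 0.087, edgeR adjusted p = 0.602), and without male replicate 2 they were 0.020 and -0.025.

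Psmd11, a lid subunit, was the lowest of the group at 19.4 ± 0.926 CPM per kilobase and nearly level, with 123, 134, 119.7, 123 and 119.7 CPM in female replicates 1 to 5 and 119.6, 134, 126, 117 and 125 CPM in male replicates 1 to 5 (log2 fold change -0.0076, SE 0.073, edgeR adjusted p = 0.964, and 0.022 without male replicate 2). Psmd3, another lid subunit, had 348, 359, 343, 319.5 and 313 CPM in female replicates 1 to 5, against 292, 332, 366, 326 and 349 CPM in male replicates 1 to 5. The lowest and the highest library were both male (log2 fold change 0.015, SE 0.083, edgeR adjusted p = 0.936, and -0.016 under upper-quartile scaling). Psmd14 (chromosome 2: 61711694 to 61800376), the deubiquitinase that cleaves ubiquitin chains from substrates, was the third of the members with an unadjusted p under 0.05. It had 126, 130.1, 126, 147 and 119 CPM in female replicates 1 to 5 and 178, 220.2, 146, 127 and 133 CPM in male replicates 1 to 5. Male replicates 1 and 2 lay above all females, and male replicates 3 to 5 inside the female range. The log2 fold change of -0.31 (SE 0.14, edgeR adjusted p = 0.506) was -0.17 without male replicate 2. Among the rest, Psmd4, a ubiquitin receptor of the particle, averaged 178 ± 6.66 CPM in the females and 196 ± 28.04 CPM in the males (SD over 5 mice). Psmd1, a scaffold of the base, averaged 229 ± 11.98 CPM in the females and 231 ± 10.05 CPM in the males (SD over 5 mice).

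The assembly chaperones help build the particles and leave before they work. Those of the regulatory base, Psmd5, Psmd9 and Psmd10, had fold changes between -0.20 and 0.014 (between -0.091 and 0.0085 without male replicate 2). Psmd10, known as gankyrin, was the highest per kilobase at 26.4 ± 3.79 CPM per kilobase and is the only X-linked member (X: 140948429 to 140956728). It had 37.7, 35.5, 38.1, 38.3 and 37.2 CPM in female replicates 1 to 5, against 43.8, 51.4, 40.6, 31.4 and 34.02 CPM in male replicates 1 to 5. The females lay within the male range (log2 fold change -0.11, SE 0.12, edgeR adjusted p = 0.669, and -0.0018 without male replicate 2). Psmd9 was the lowest by the union of exons at 12.4 ± 2.09 CPM per kilobase, with 97.1, 90.05, 79.9, 75.5 and 75.95 CPM in female replicates 1 to 5 and 75.8, 123, 104, 87.6 and 89.3 CPM in male replicates 1 to 5, where female replicate 1 lay above 3 of the 5 males (-0.20, SE 0.13, edgeR adjusted p = 0.518, and -0.091 without male replicate 2). A noncoding gene on the opposite strand covers 25.5% of the Psmd9 exons, and the level of Psmd9 is uncertain to that extent. Psmd5 had 116, 119, 119, 114 and 103 CPM in female replicates 1 to 5, against 119, 111, 111, 109 and 116 CPM in male replicates 1 to 5, a spread between mice of 4.49% of its mean, the smallest of the 47 (log2 fold change 0.014, SE 0.073, edgeR adjusted p = 0.932, 0.0085 without male replicate 2, and -0.017 under upper-quartile scaling).

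The chaperones that assemble the alpha ring, Psmg1 to Psmg4, had fold changes between -0.25 and -0.096 (between -0.083 and 0.077 without male replicate 2). Psmg1 was the highest per kilobase at 48.6 ± 8.71 CPM per kilobase. It had 59.8, 57.8, 66.4, 64.3 and 58.98 CPM in female replicates 1 to 5 and 64.02, 96.9, 67.4, 55.9 and 61.7 CPM in male replicates 1 to 5. Psmg3, the lowest at 6.81 ± 2.09 CPM per kilobase, had 17.6, 20.4, 17.6, 16.7 and 17.6 CPM in female replicates 1 to 5, against 19.8, 35.6, 21.7, 13.4 and 16.5 CPM in male replicates 1 to 5. In Psmg3 male replicate 2 held 1.98 times the mean of the other 9 libraries, the highest such ratio of the family, and male replicate 4 was the lowest library. Their log2 fold changes were -0.17 (SE 0.14, edgeR adjusted p = 0.557) and -0.25 (SE 0.22, edgeR adjusted p = 0.583), and without male replicate 2 they were -0.017 and 0.013.

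Genes that work with the proteasome but carry other symbols gave 0 calls as well. Of 11 tested subunits and partners, 7 had fold changes below 0 (median -0.076) and 0 had an unadjusted p under 0.05. Pomp, the maturation factor of the core, averaged 117 ± 4.97 CPM in the females and 147 ± 52.8 CPM in the males (SD over 5 mice) (log2 fold change -0.34, SE 0.19), and Sem1, a small lid subunit, averaged 113 ± 6.24 CPM in the females and 142 ± 51.6 CPM in the males (SD over 5 mice) (-0.33, SE 0.19), both with an edgeR adjusted p of 0.506. Male replicate 2 had 238 CPM of Pomp and 227 CPM of Sem1, above every other library, and without it their log2 fold changes were -0.093 and -0.099. Of 8 tested genes that control proteasome transcription, 4 were below and 4 above 0 (median 0.015). The 2 of smallest p were Nlrc5, which drives MHC class I genes and averaged 16.5 ± 5.54 CPM in the females and 11.4 ± 3.83 CPM in the males (SD over 5 mice) (0.53, SE 0.26, edgeR adjusted p = 0.506) and Ddi2, the protease that activates NFE2L1 and averaged 99.2 ± 11.2 CPM in the females and 77.7 ± 23.3 CPM in the males (SD over 5 mice) (0.35, SE 0.19, edgeR adjusted p = 0.506, and 0.21 without male replicate 2).

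Of 15 ubiquitin, activation and delivery genes, 9 were above 0 (median 0.042) and 1, Uba6, an alternative ubiquitin-activating enzyme, was higher at an unadjusted p under 0.05, as were 3.76% of all genes tested. Uba6 had 33.6, 33.3, 33.6, 34.2 and 33.1 CPM in female replicates 1 to 5 and 30.3, 22.8, 26.8, 28.98 and 30.4 CPM in male replicates 1 to 5, with every female above every male, as for 1.06% of all genes tested. Its log2 fold change was 0.27 (SE 0.093, edgeR adjusted p = 0.506) and 0.21 without male replicate 2. Ubb, one of the genes that encode ubiquitin chains, averaged 2095 ± 87.96 CPM in the females and 2489.6 ± 486 CPM in the males (SD over 5 mice) (-0.25, SE 0.12, edgeR adjusted p = 0.506, and -0.13 without male replicate 2). The 11 MHC class I loading genes had a median of 0.017, with 5 below 0 and 0 at an unadjusted p under 0.05. Those of smallest p were B2m, the invariant light chain, which averaged 636 ± 77.2 CPM in the females and 788 ± 223 CPM in the males (SD over 5 mice) (-0.31, SE 0.17, edgeR adjusted p = 0.506, and -0.14 without male replicate 2), and Canx, a chaperone, which averaged 805 ± 39.3 CPM in the females and 732 ± 56.8 CPM in the males (SD over 5 mice) (0.14, SE 0.081, edgeR adjusted p = 0.507).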

How the data were processed

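Raw counts per gene for 10 libraries, 1 per mouse, were used as the authors deposited them. Per the submitters' processing notes STAR, featureCounts and DESeq were used with GRCm38.p6 (mm10), with tool versions, strand setting, mouse ages and annotation release not given in the sources used here. A deposited normalized table was not used. Libraries held 20754101 to 24759687 counts. Replicates differed by more than sampling noise.

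Genes were kept by edgeR's default filter (filterByExpr), scaled by TMM and tested, female over male, with edgeR 4.0.16 (R 4.3.3) by the quasi-likelihood test with Benjamini-Hochberg adjustment over all genes kept, without covariates. The fit was run on simulated counts with changes of 1 and 2 on the log2 scale, and 87% and 99% of these were called. Of its 195 calls, 9 were genes left unchanged. Smaller changes, an outlying library and a length trend were not simulated, so it cannot speak for the fold changes here. CPM used TMM-scaled library sizes. Lengths, coordinates and overlaps came from GENCODE annotation of GRCm38, and levels per kilobase used the union of exons unless stated. Catalytic ratios added 0.5 counts and were compared by exact permutation. Alternatives were RLE and upper-quartile scaling, DESeq2 1.42.0, other count filters, a replicate block, a length-slope covariate and libraries left out.

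Members and lists were chosen with earlier results of these data known. Values in every mouse are given for the catalytic subunits, Psme1, Psme2, the highest and lowest member per kilobase of each role group, and up to 6 members per direction with the smallest p. Each other list is given by its counts and its 2 genes of smallest p.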

Additional observations from a re-analysis of the deposited data

Results flagged for a closer look

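In each group of 5 mice the gap between an extreme library and its nearest neighbour was compared with the group's range by Dixon's criterion, over 104 groups. It was exceeded 18 times. Chance flags about 1 in 20 groups when groups are independent, and these are not, since they are genes of the same 10 libraries and their median, so no expected number is set against the 18. Male replicate 2 stood far above the other males in 11 of the 18. They were Psma7 (403 CPM), Psmb1 (385 CPM), Psmb4 (484 CPM), Psmb6 (283 CPM), Psmc1 (281 CPM), Psmc2 (288 CPM), Psmc3 (357 CPM), Psmd8 (251 CPM), Psmd12 (168 CPM), Psmg1 (96.9 CPM) and the median log2 deviation of all members from their means (0.53). It stood far below the other males in Psme3 (246 CPM, the others 319 to 349 CPM).

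The remaining gaps each concerned another library. Psmb2 was high in female replicate 1 (139.7 CPM, the other females 123 to 127 CPM). Psmd11 and Psmg3 were high in female replicate 2 (134 and 20.4 CPM, the other females at most 123 and 17.6 CPM). Psmc2 was low in female replicate 5 (178 CPM, the other females 191 to 194 CPM). Psmd1 was low in male replicate 1 (214 CPM, the other males 232 to 238 CPM), and Psma8 in male replicate 3 (2.39 CPM, the other males 3.47 to 3.78 CPM).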

How the results depend on the processing

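No proteasome gene was called under any alternative run. The call count over all genes, 8, was 60 with DESeq2 and 6 to 10 with 1 library left out. The replicate numbers shared by the sexes did not pair the mice (same-number correlations of deviations -0.302, -0.0996, -0.0071, -0.21 and -0.0267, and 0 mice correlated best with their own number). With the replicate block 5 genes were called over all genes, and 0 members were lower at an unadjusted p under 0.05 (2.35% of all genes were). That member count, 3, was 5 with no filter (4.85% of all genes), 0 with the length-slope covariate (2.53%), 0 without male replicates 1 and 2 (1.94%), and 0 to 17 with 1 library left out. It was 17 without male replicate 4 (8.79% of all genes), 13 without male replicate 5 (9.04%), 1 without male replicate 2 (3.89%), and 0 without female replicate 1, 2, 3 or 5 (2.89% to 4.34%). The count of higher members, 0 (3.76% of all genes tested), was 0 to 1 with 1 library left out, with 1 without female replicate 5. The share of all genes that were higher in that run was not computed, so the 1 cannot be set against it. The members' median was -0.25 to -0.076 with 1 library left out and -0.037 without male replicates 1 and 2 (34 of 47 below 0, against 50.4% of all genes).

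Fold changes of genes that were not called changed sign as follows, and the cause was not tested. With the length-slope covariate they were 0.12 for Psmb10, 0.037 for Psmb5, 0.0082 for Psmb8, 0.016 for Psmb9, 0.072 for Psmd10, 0.029 for Psmd11, -0.00027 for Psmd2, 0.0079 for Psmd7, 0.011 for Psme1, -0.029 for Psme3, -0.018 for Psme4, 0.029 for Psmg1 and 0.13 for Psmg3. Without male replicates 1 and 2 they were 0.13 for Psmb10, 0.0047 for Psmb5, 0.070 for Psmb8, 0.064 for Psmb9, 0.077 for Psmd10, 0.0095 for Psmd11, -0.0037 for Psmd2, -0.048 for Psmd3, 0.017 for Psme1, -0.0018 for Psme3, -0.018 for Psme4 and 0.063 for Psmg3, and the log2 ratio of Psmb8 to Psmb5 was 0.044. Upper-quartile scaling gave -0.016 for Psmd3 and -0.017 for Psmd5, and no filter gave 0.00086 for Psmd11.

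With 1 library left out the ranges that crossed 0 were -0.14 to 0.057 for Psmb10, -0.037 to 0.022 for Psmd11, -0.035 to 0.047 for Psmd3, -0.0018 to 0.049 for Psmd5, -0.023 to 0.086 for Psme3, -0.38 to 0.013 for Psmg3, -0.089 to 0.056 for the log2 ratio of Psmb8 to Psmb5 and -0.051 to 0.12 for that of Psmb9 to Psmb6. With the longest coding transcript as length, the ratio per kilobase was 34.2% in females and 34.3% in males for Psmb8 to Psmb5, 18.4% in males for Psmb9 to Psmb6, and 42.4% in females and 38.8% in males for Psmb10 to Psmb7. The other 619 values kept their direction and side of the threshold, or moved by less than the spread between mice.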
